A study of Homo sapiens with 2 samples.

Results

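The PI3K, AKT, mTOR and FOXO pathway was followed through 45 genes that were listed by symbol and looked up in the 2 deposited expression tables, which name 49672 genes in all. All 45 were found, 44 under the listed symbol and CASTOR1 under its older name GATSL3. The cells were C4-2B, a castration-resistant, androgen-independent line of prostate cancer with LNCaP ancestry and a bone-metastatic habit, and both groups are cultures of that 1 line. 1 library came from cells given DMSO vehicle and 1 from cells given 2.5 µM MA4-022-1, which the labels call a BET-kinase inhibitor. The labels give no exposure time. With 1 library per group no difference has a replicate check, so no p-value is given and every statement compares these 2 libraries.

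Growth factor receptors recruit adaptors such as the IRS proteins and class I PI3K, which makes the membrane lipid PIP3. PIP3 brings PDK1 and AKT together, and active AKT restrains the TSC complex, FOXO transcription factors and GSK3. The small GTPase RHEB, once free of the TSC complex, switches on mTOR complex 1 at the lysosome, where Rag GTPases report the supply of amino acids, and AMPK opposes it when energy is short. In prostate cancer this pathway is known for its cross-talk with androgen signalling.

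The main observation was a small spread among the listed members, which were chosen with earlier results of these data known. A wider list of pathway genes, given further below, spread more widely. Of the 45 members, 42 reached 1 RPKM (reads per kilobase of transcript, scaled to library size) in at least 1 library, and 41 of these lay within 2-fold between the libraries. The measure was the log2 ratio of RPKM + 1, MA4-022-1 over vehicle, which understates the change of low genes. FNIP1, read from a row it shares with its neighbour RAPGEF6, was the 1 member at least 2-fold higher, or 2.38% of the 42, against 7.74% of all 15435 expressed genes. No member was at least 2-fold lower, against 9.57% of all expressed genes. Among 9840 expressed protein-coding genes, 4.12% were at least 2-fold higher and 9.50% lower. This protein-coding set holds no joined rows. Of the 35 expressed members with rows of their own, 0 were at least 2-fold higher and 0 lower. The members' median log2 ratio was -0.07, that of all expressed genes -0.02 and that of the protein-coding genes -0.10. For the members with rows of their own it was -0.12. The median size of the difference, sign left aside, was 0.25 for the members and 0.42 for the protein-coding genes. At 1.5-fold, 3 members were higher (FNIP1, TSC1 and FLCN, against 18.8% of all expressed genes) and 2 lower (IRS1 and RHEB, against 20.7%).

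Differences smaller than 1.5-fold, and some just past it, depend in part on the scale chosen. Centring on 22 housekeeping controls shifted every log2 ratio by 0.15, and equal sums over the expressed genes moved the median by 0.10 the other way. On the deposited scale 17 members lay above 0 and 25 below, on the housekeeping scale 25 above and 17 below. All expressed genes on the deposited scale had 7545 above and 7890 below, and protein-coding genes 4353 above and 5487 below. At 1.5-fold the split was 4 higher and 1 lower on the housekeeping scale and 2 higher and 4 lower with equal sums. RHEB fell short of 1.5-fold on the housekeeping scale, at -0.52, and FLCN with equal sums, at 0.575. The sign held on all 4 scales for 15 members that were higher and 17 that were lower, and for the other 10 it turned. Kept signs were not counted over all expressed genes. "Higher" and "lower" below are used only of members that kept their sign.

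**Figure D1:**
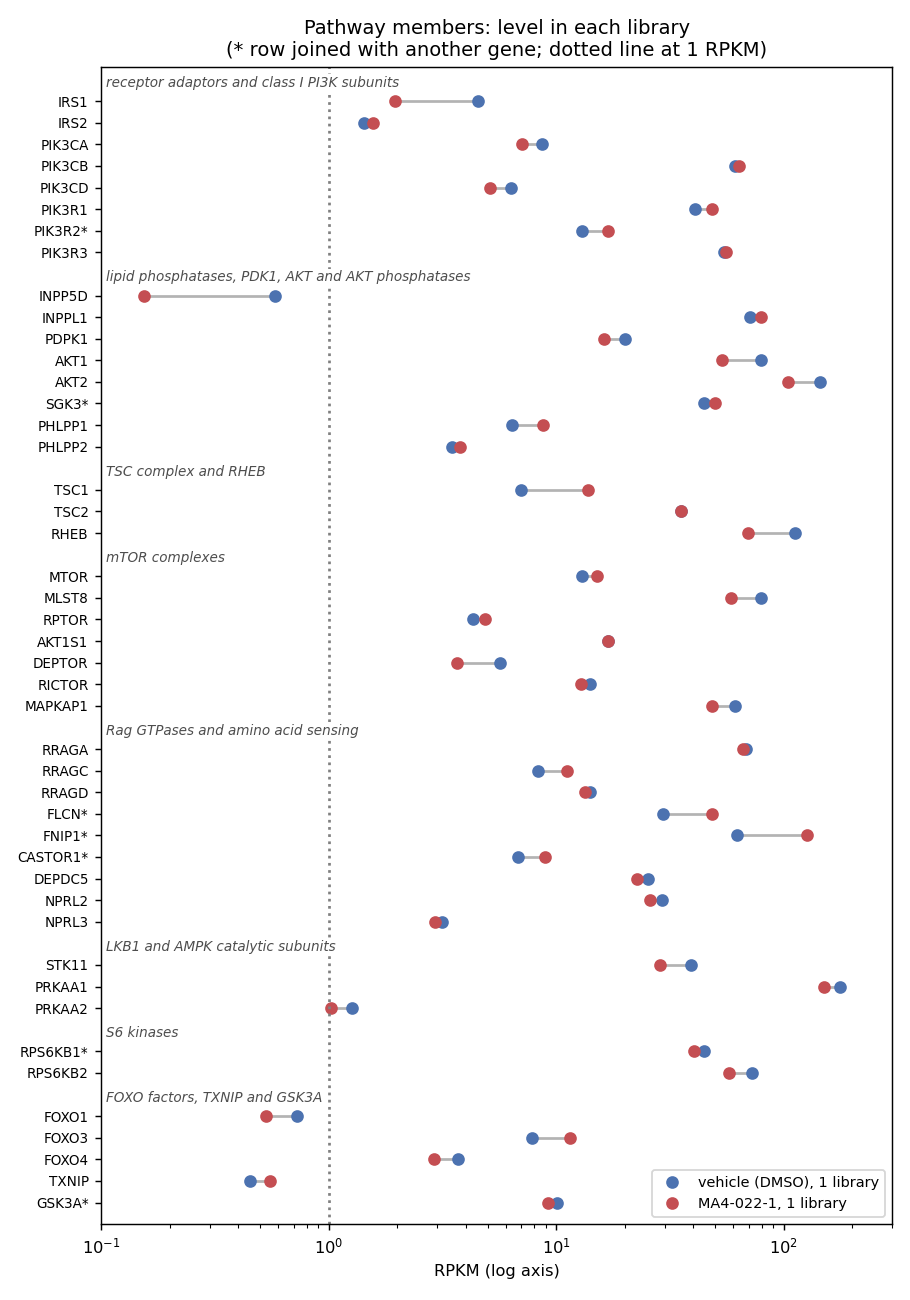
Level of each of the 45 members in RPKM on a log axis, 1 point per library (vehicle and MA4-022-1), grouped by step of the pathway, with an asterisk where the row is joined with another gene. Levels ran from under 1 RPKM for INPP5D, FOXO1 and TXNIP to over 100 in both libraries for PRKAA1 and AKT2, and most pairs of points lie close together.

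Low values moved in whole steps of 1 read, which placed the normalising totals at 26815634 reads for vehicle and 19659980 for MA4-022-1. A transcript of 2000 nt with 1 read thus stood at 0.0206 and 0.0281 RPKM. From these totals and annotated transcript lengths an exact binomial interval at 95% was set on the ratio of the RPKM values of members with a row of their own. It covers counting error only, not PCR duplicates or the spread between cultures. Its width also depends on the length used, a median over annotated coding transcripts that was short for some members. AKT2 was given 594 nt and about 1541 vehicle reads, AKT1 2726 nt and about 5362, although AKT2 had the higher RPKM. Widths, and whether an interval includes 1, are therefore estimates. Of the 35 such intervals of members at 1 RPKM or more, 25 lay wholly above or below a ratio of 1 on the deposited scale, 24 on the housekeeping scale and 27 with equal sums. How many intervals of all expressed genes would do so was not counted, so these numbers show nothing particular to the pathway. The size of the members' differences against culture-to-culture spread is unknown. Prostate epithelial markers matched the label: all 8 with rows of their own stood at 31.7 RPKM or more in both libraries. Of 9 markers of blood, vessel, stromal and liver cells with rows of their own, 7 lay under 1 RPKM in each library, PECAM1 and ALB were listed at 0 in both, and the 9 summed to 4.98 and 8.73 RPKM. The other 2 were COL1A1, a fibroblast collagen gene, at 1.19 RPKM in vehicle and 5.03 with MA4-022-1, and ACTA2, smooth muscle actin, at 2.75 and 3.13 RPKM. Most of the difference between the sums came from COL1A1, and its part in the results was not tested. In such bulk RNA a shift in the share of cells in a state and a shift of RNA per cell cannot be told apart.

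The promoter sequences of the 2 members with the highest ratios and the 2 with the lowest are given here, because these 4 set the range of the pathway, together with that of TXNIP, a glucose-responsive gene also described as a FOXO target. Each runs 5′ to 3′ in the gene's direction over the 250 bases before the RefSeq start (RefSeq, GRCh38.p14). Capitals mark E-boxes (CACGTG, read by MYC with MAX and by TFEB), GC boxes (GGGCGG, read by SP1-type factors) and FOXO elements (GTAAACA), each searched on both strands with overlapping matches counted separately.
FNIP1 (chr5:131797018-131797267, minus strand): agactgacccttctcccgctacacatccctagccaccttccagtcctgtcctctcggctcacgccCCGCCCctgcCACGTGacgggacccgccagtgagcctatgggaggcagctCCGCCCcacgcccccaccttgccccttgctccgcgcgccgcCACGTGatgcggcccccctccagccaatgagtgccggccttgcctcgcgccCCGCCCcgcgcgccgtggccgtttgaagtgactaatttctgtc
TSC1 (chr9:132944617-132944866, minus strand): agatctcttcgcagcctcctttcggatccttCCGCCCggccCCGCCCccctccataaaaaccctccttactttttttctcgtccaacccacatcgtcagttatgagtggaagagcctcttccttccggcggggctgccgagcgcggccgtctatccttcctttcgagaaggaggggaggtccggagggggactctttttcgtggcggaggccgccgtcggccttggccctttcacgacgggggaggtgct
IRS1 (chr2:226799821-226800070, minus strand): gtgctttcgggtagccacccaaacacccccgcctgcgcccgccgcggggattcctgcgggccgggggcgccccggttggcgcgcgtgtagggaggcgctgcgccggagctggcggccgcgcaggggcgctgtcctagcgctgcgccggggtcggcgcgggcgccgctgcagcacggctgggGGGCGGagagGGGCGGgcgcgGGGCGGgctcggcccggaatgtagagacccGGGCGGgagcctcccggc
RHEB (chr7:151519896-151520145, minus strand): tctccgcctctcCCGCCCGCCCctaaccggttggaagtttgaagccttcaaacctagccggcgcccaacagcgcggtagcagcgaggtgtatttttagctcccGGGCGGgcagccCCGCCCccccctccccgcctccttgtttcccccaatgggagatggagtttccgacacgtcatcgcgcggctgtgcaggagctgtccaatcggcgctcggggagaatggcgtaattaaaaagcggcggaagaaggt
TXNIP (chr1:145996580-145996829, minus strand): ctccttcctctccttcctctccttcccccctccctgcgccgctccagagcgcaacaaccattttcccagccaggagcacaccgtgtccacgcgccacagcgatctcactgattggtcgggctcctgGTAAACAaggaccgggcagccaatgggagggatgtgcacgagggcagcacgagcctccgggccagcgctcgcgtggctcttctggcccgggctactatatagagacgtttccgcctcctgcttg
The FNIP1 window held 2 E-boxes, beginning 175 and 94 bases before the start, and 3 GC boxes. TSC1 held 2 GC boxes, IRS1 4 and RHEB 4, with no E-box in these windows. TXNIP held 1 FOXO element, 124 bases before the start. RefSeq windows matched 39 of the 45 members, with 61 starts in all. GC boxes stood in 68.9% of the members' windows and 42.6% of all 35116 windows. E-boxes stood in 4.92% of the members' windows (FNIP1, RRAGC and TSC2) and 6.34% of all windows. FOXO elements stood in 3.28% of the members' windows (PIK3CA and TXNIP) and 2.98% of all windows. These matches describe letters and show no binding.

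At the entry to the pathway, IRS1, the adaptor that couples insulin and IGF receptors to PI3K, had the lowest ratio of all 42 members. Vehicle cells had 4.54 RPKM and MA4-022-1 cells 1.95, a log2 ratio of -0.91 on the RPKM + 1 scale (hg19, chromosome 2, 227599757 to 227664475). The ratio of the RPKM values themselves was 0.430 with a counting interval of 0.381 to 0.484, so without the added 1 RPKM IRS1 lies past 2-fold. Its paralogue IRS2 stood at 1.43 and 1.57 RPKM, with a counting interval of 0.925 to 1.31 that includes 1. IRS1 therefore made up 76.1% of the summed RPKM of the pair in the vehicle library and 55.5% with MA4-022-1. The sum itself was 5.97 and 3.52 RPKM.

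Class I PI3K joins a catalytic subunit, which makes the lipid, to a regulatory subunit, which stabilises and restrains it. PIK3CB was the main catalytic transcript, at 60.9 RPKM in vehicle and 63.7 with MA4-022-1. PIK3CA stood at 8.68 and 7.09 RPKM and PIK3CD, an isoform best known from leukocytes, at 6.31 and 5.13 RPKM, so both were slightly lower. The 3 summed to 75.9 RPKM in each library, and PIK3CB held 80.3% of that sum in vehicle and 83.9% with MA4-022-1. PIK3CA has a near-identical pseudogene copy, which makes its value uncertain.

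Among the regulatory subunits, PIK3R3 was the most abundant, at 54.7 and 55.9 RPKM over its 2 rows. PIK3R1 was higher with MA4-022-1, at 40.6 against 48.5 RPKM, a ratio of 1.19 (counting interval 1.11 to 1.28). PIK3R2 was read from a row joined with IFI30 and stood at 13.02 and 16.8 RPKM. Regulatory subunits thus summed to 108 RPKM in vehicle and 121 with MA4-022-1, beside an equal catalytic sum.

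**Figure D2:**
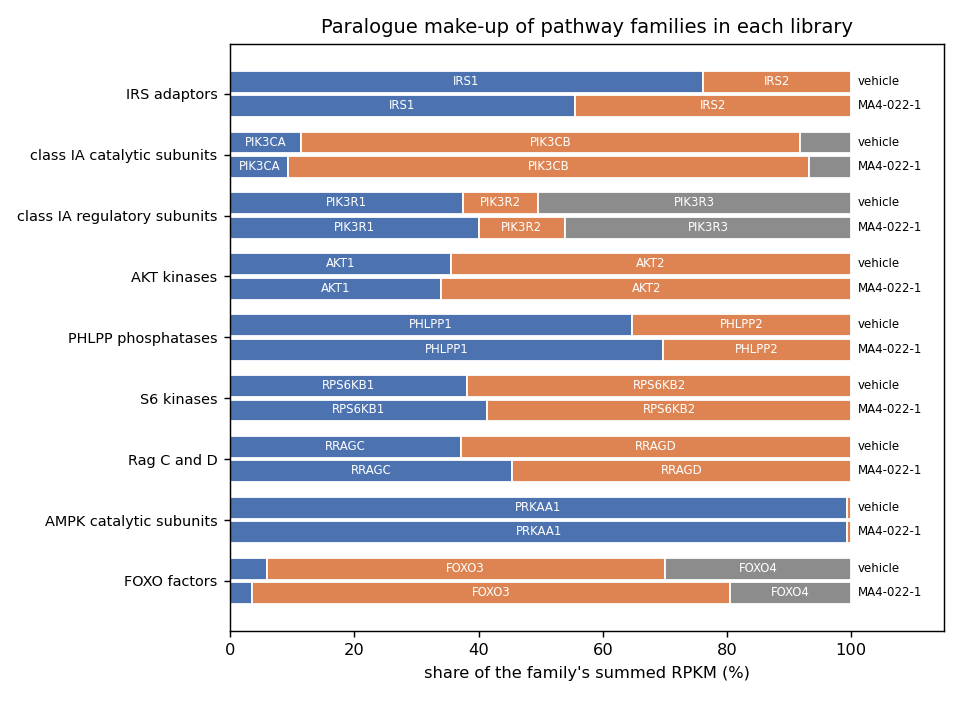
Share of each family's summed RPKM, in percent, held by each paralogue in the vehicle library (upper bar of a pair) and the MA4-022-1 library (lower bar). The IRS pair moved most, from 76.1% to 55.5% IRS1, followed by FOXO3, from 64.0% to 76.9%, while PIK3CB, AKT2 and PRKAA1 led their families in both libraries.

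AKT1, AKT2 and PDPK1, the kinases that meet at PIP3, were lower in the MA4-022-1 library. AKT2 stood at 144 RPKM in vehicle and 104 with MA4-022-1, a log2 ratio of -0.47, and AKT1 at 79.0 and 53.4 RPKM, a log2 ratio of -0.55. The ratios of the values were 0.722 (0.663 to 0.786) for AKT2 and 0.677 (0.646 to 0.709) for AKT1. Their proportion barely differed, with AKT2 at 64.5% and 66.0% of the sum of the pair. PDPK1, which encodes the AKT-activating kinase PDK1, was lower too, at 19.95 and 16.2 RPKM. The row that joins its near-identical neighbour PDPK2 with ERVK13-1 and RP11-20I23.12 went the other way, at 9.81 and 22.7 RPKM. How much of that difference belongs to PDPK2 was not tested. Reads split between the copies make the values of PDPK1 and PDPK2 uncertain. SGK3, an AKT-like kinase that responds to another phosphoinositide, was read from a row joined with C8orf44 and stood at 44.4 and 49.7 RPKM.

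Of the phosphatases that oppose AKT, INPPL1 and PHLPP1 were slightly higher, PHLPP2 differed little and INPP5D was barely present. INPPL1, the SHIP2 lipid phosphatase, stood at 70.8 and 79.2 RPKM. PHLPP1, which removes a phosphate from the tail of AKT, stood at 6.37 and 8.70 RPKM, a ratio of 1.37 (1.21 to 1.54). PHLPP2 stood at 3.47 and 3.79 RPKM, with a counting interval of 0.979 to 1.22 that includes 1. INPP5D, the SHIP1 phosphatase of blood cells, was under 1 RPKM in both libraries at 0.577 and 0.154, about 63 and 12 reads. The ratio of these low values was 0.266 with a counting interval of 0.127 to 0.486. It did not enter the count of 42.

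The TSC complex and RHEB showed the widest contrast within one step of the pathway. TSC1, the scaffold of the complex, stood at 6.97 RPKM in vehicle and 13.8 with MA4-022-1, a log2 ratio of 0.89 (hg19, chromosome 9, 135766735 to 135820022). The ratio of the values was 1.98 with a counting interval of 1.75 to 2.24, which spans 2-fold. TSC2, the subunit that inactivates RHEB, stood at 35.3 RPKM in both libraries. RHEB, which TSC2 acts on, was lower at 112 and 69.8 RPKM, a log2 ratio of -0.67 (hg19, chromosome 7, 151163098 to 151217206), with a ratio of values of 0.625 (0.576 to 0.678). RHEB has processed pseudogene copies, so single reads could be assigned to them. On the housekeeping scale TSC1 passed 2-fold, at a log2 ratio of 1.04, while RHEB stood at -0.52 there.

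**Figure D3:**
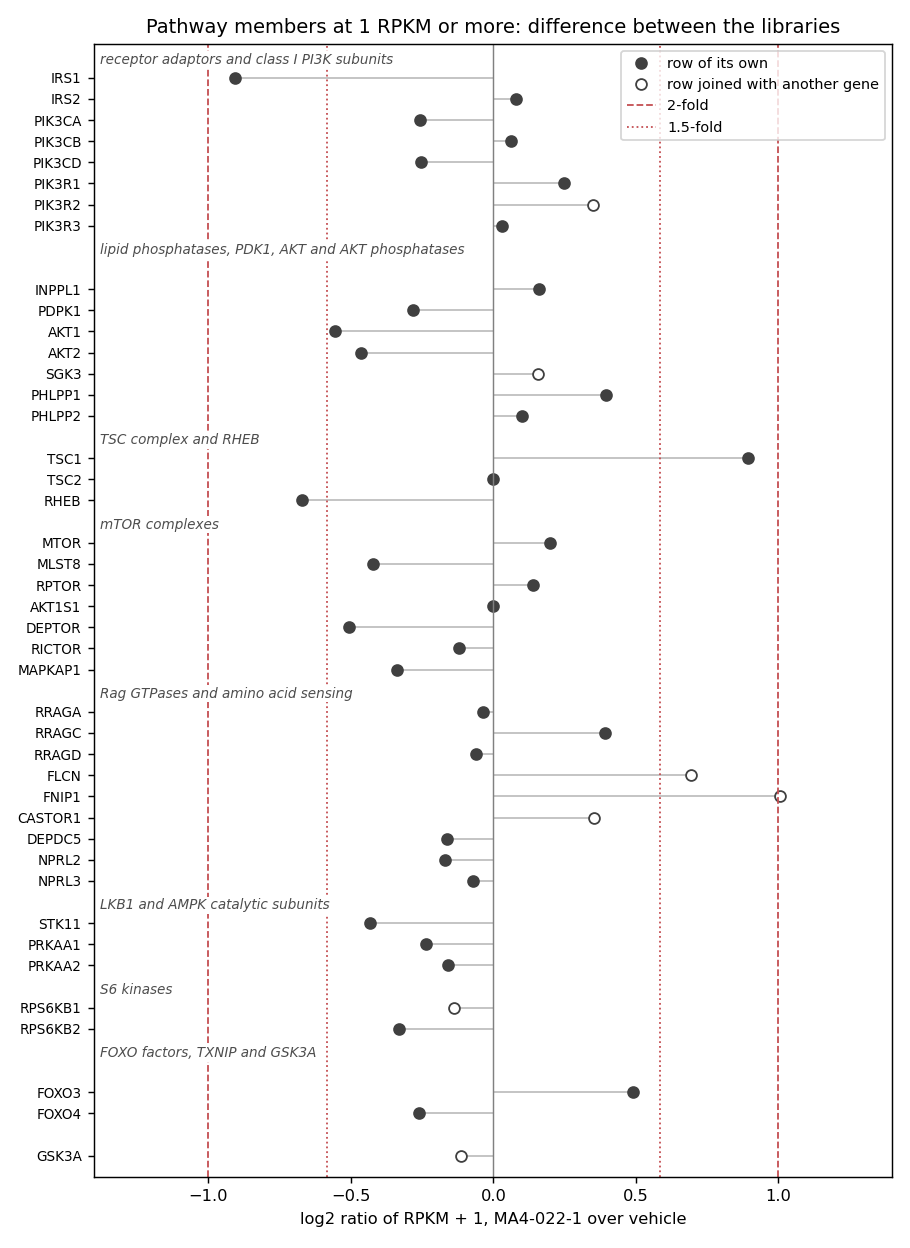
Log2 ratio of RPKM + 1, MA4-022-1 over vehicle, for the 42 members at 1 RPKM or more, with open points for rows joined with another gene and lines at 1.5-fold and 2-fold. FNIP1 touches the upper 2-fold line, and IRS1, RHEB, TSC1 and FLCN lie between the 1.5-fold and 2-fold lines.

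The mTOR complexes share the kinase MTOR and MLST8, and differ in RPTOR (complex 1) against RICTOR and MAPKAP1 (complex 2). MTOR stood at 12.99 RPKM in vehicle and 15.0 with MA4-022-1, and RPTOR at 4.31 and 4.85 RPKM. MLST8 was lower, at 79.1 and 58.8 RPKM, a log2 ratio of -0.42. RICTOR stood at 14.0 and 12.8 RPKM, and MAPKAP1, the SIN1 subunit of complex 2, was lower at 61.2 and 48.2 RPKM. Of the 2 inhibitors bound to mTOR, DEPTOR was lower at 5.63 and 3.66 RPKM, a log2 ratio of -0.51 with a ratio of values of 0.651 (0.523 to 0.805). AKT1S1, the PRAS40 protein that AKT phosphorylates, stood at 16.8 RPKM in both. On the RPKM + 1 measure and the deposited scale none of the 7 members of these complexes passed 1.5-fold. DEPTOR did so with a pseudocount of 0.1 RPKM, at a log2 ratio of -0.61, and with equal sums, at -0.60.

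On the amino acid branch, FLCN and FNIP1 encode partners of 1 complex that acts on RagC and RagD at the lysosome. The FNIP1 row stood at 62.3 RPKM in vehicle and 126 with MA4-022-1, a log2 ratio of 1.00 (hg19, chromosome 5, 130759614 to 131132741). The FLCN row, joined with PLD6, stood at 29.5 and 48.2 RPKM, a log2 ratio of 0.69. With equal sums the FLCN row stood at 0.575, short of 1.5-fold. Both rows pool a neighbour, so how much of either difference belongs to FLCN or FNIP1 was not tested. The FNIP1 value sits at the 2-fold line itself, and it fell short of it with a pseudocount of 5 RPKM, at 0.96, and with equal sums, at 0.89.

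The Rag GTPases carry the amino acid signal to mTOR complex 1. RRAGA stood at 67.8 and 66.2 RPKM and RRAGD at 14.0 and 13.4 RPKM, whereas RRAGC was higher at 8.27 and 11.2 RPKM, a ratio of 1.35 (1.20 to 1.52). The GATOR1 subunits DEPDC5, NPRL2 and NPRL3, which shut the Rag GTPases off, stood at 25.3 and 22.6, at 29.2 and 25.8 and at 3.14 and 2.93 RPKM. CASTOR1, the arginine sensor, was read from a row joined with TBC1D10A and RP1-130H16.18 and stood at 6.79 and 8.95 RPKM.

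In the energy-sensing branch, PRKAA1, the main AMPK catalytic subunit of these cells, had the highest level of all members, at 177 RPKM in vehicle and 150 with MA4-022-1. Its paralogue PRKAA2 stood at 1.26 and 1.03 RPKM, so PRKAA1 held 99.3% of the pair in each library. STK11, which encodes the AMPK-activating kinase LKB1, was lower at 38.9 and 28.6 RPKM, a log2 ratio of -0.43. All 3 members of this branch were lower, with ratios between -0.43 and -0.16, and none passed 1.5-fold.

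Among the outputs, the S6 kinase RPS6KB2 stood at 72.3 and 57.3 RPKM, a log2 ratio of -0.33, and RPS6KB1, in a row joined with a noncoding gene, at 44.5 and 40.4 RPKM. GSK3A, a kinase that AKT inhibits, was read from a row joined with ERF and AC006486.9 and stood at 10.05 and 9.21 RPKM. FOXO3 was the main FOXO transcript and was higher, at 7.84 and 11.4 RPKM, a log2 ratio of 0.49 and a ratio of values of 1.46 (1.36 to 1.56). It has a near-identical copy, FOXO3B, so its value is uncertain. FOXO4 was lower at 3.68 and 2.91 RPKM, and FOXO1 lay under 1 RPKM in both, at 0.721 and 0.528. FOXO3 held 64.0% of the FOXO sum in vehicle and 76.9% with MA4-022-1.

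TXNIP, which binds thioredoxin and limits glucose uptake, was low in both libraries. It stood at 0.449 RPKM in vehicle and 0.553 with MA4-022-1, about 23 and 20 reads. The ratio of 1.23 had a counting interval of 0.617 to 2.25, so no difference was detectable at this depth. A further TXNIP row, on an alternate assembly patch, was listed at 0 in both libraries.

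Members were also sorted by their textbook action in the pathway. The 20 expressed members classed as promoting it had a median log2 ratio of -0.19, and the 14 classed as restraining it one of -0.04. The promoting class includes RPS6KB1 and RPS6KB2, which are outputs of mTOR complex 1, and SGK3, an AKT-like kinase. On the deposited scale, 2 of the promoting members were at least 1.5-fold lower (IRS1 and RHEB, 10%, against 20.7% of all expressed genes) and none higher by that fold. Of the restraining ones, 1 was at least 1.5-fold higher (TSC1, 7.14%, against 18.8%) and none lower. Neither share was above that of all expressed genes. With equal sums AKT1 joined the lower promoting members, making 3, and DEPTOR became 1 lower restraining member, while on the housekeeping scale IRS1 was the 1 lower promoting member. The ranges overlapped, from -0.91 to 0.39 and from -0.51 to 0.89. With equal sums the medians were -0.30 and -0.14, and on the housekeeping scale -0.04 and 0.11. The other 8 expressed members fall in neither class. The 5 of mixed action (PIK3R1, PIK3R2, PIK3R3, FLCN and FNIP1) all stood above 0 on the deposited scale, with a median of 0.35. They include FNIP1 and FLCN, the other members at least 1.5-fold higher. PIK3R2, FLCN and FNIP1 were read from joined rows, and the median is the value of the PIK3R2 row. PIK3R3 stood at -0.087 with equal sums. For comparison, 4353 of 9840 expressed protein-coding genes stood above 0 on the deposited scale. The 3 classed only as restrained by AKT (FOXO3, FOXO4 and GSK3A) had a median of -0.11, which is the value of the joined GSK3A row. TSC1, TSC2 and AKT1S1, on which AKT also acts, were kept in the restraining class.

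Other genes of the pathway, 71 in a wider list, gave 62 at 1 RPKM or more, with a median log2 ratio of 0.04. Their median size of difference was 0.34, against 0.25 for the members and 0.42 for the protein-coding genes. At least 1.5-fold either way were 33.9% of them, against 11.9% of the members and 35.1% of the protein-coding genes. Among members with rows of their own, the only kind of row in the protein-coding set, the share was 8.57%. The small spread of the members was thus not shared by this list. Of the 62, 5 were at least 2-fold higher, or 8.06% against 7.74% of all expressed genes and 4.12% of the protein-coding ones. The 3 that were at least 2-fold lower made up 4.84%, against 9.57% and 9.50%. ULK1, the autophagy kinase that mTOR complex 1 and AMPK regulate, was at 1.80 RPKM in vehicle and 11.5 with MA4-022-1. On the RPKM + 1 scale, used for all folds below, ULK1 was 4.45-fold higher. The ratio of its RPKM values themselves was larger, with a counting interval of 5.54 to 7.33. ITFG2, part of the KICSTOR scaffold that holds GATOR1 at the lysosome, was 2.80-fold higher at 11.7 and 34.4 RPKM. TBC1D7, the smallest subunit of the TSC complex, was 2.40-fold higher at 9.88 and 25.1 RPKM, so 2 of the 3 TSC complex subunits, TSC1 and TBC1D7, had the higher value with MA4-022-1 while TSC2 stood at 35.3 RPKM in both. IGF1R, a receptor that signals through IRS1, was 2.38-fold higher at 27.3 and 66.3 RPKM. The other gene past 2-fold, GAB1, a docking protein for PI3K named after its value was seen, stood at 1.51 and 4.07 RPKM.

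The lower genes of the wider list were INPP4B, EIF4EBP1 and the row that joins ERBB3 with PA2G4. INPP4B, a phosphatase of a lipid made downstream of PI3K, stood at 15.3 and 3.67 RPKM, or 3.50-fold lower on the RPKM + 1 scale. EIF4EBP1, the translation repressor that mTOR complex 1 phosphorylates, was 2.24-fold lower at 231 and 103 RPKM. ERBB3, a receptor that recruits PI3K directly, shared its row at 280 and 139 RPKM, or 2.01-fold lower.

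Of 29 genes often described as FOXO targets, 25 reached 1 RPKM, with a median log2 ratio of -0.12. Of these, 1 was at least 2-fold higher (4.0%, against 7.74% of all expressed genes and 4.12% of the protein-coding ones). At least 2-fold lower were 3 (12.0%, against 9.57% and 9.50%). CITED2, a transcriptional coregulator, stood at 4.02 and 11.8 RPKM, or 2.54-fold higher on the RPKM + 1 scale. GADD45A, a growth arrest gene, was 2.73-fold lower on that scale, at 17.4 and 5.75 RPKM, and the ERBB3 row is also on this list. The third lower gene, TNFSF10, which encodes the death ligand TRAIL, is named after its value was seen, at 3.46 and 0.137 RPKM. The list is not separate from the genes above: 4 of the 25 are pathway members (IRS2, PIK3CA, RICTOR and FOXO3) and 5 are also on the wider list (SESN1, SESN3, INSR, ERBB3 and PIK3IP1). Without the 4 members, 8 of 21 stood above 0 and 13 below, with a median of -0.16. Of the 9840 expressed protein-coding genes, 4353 stood above 0 and 5487 below.

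**Figure D4:**
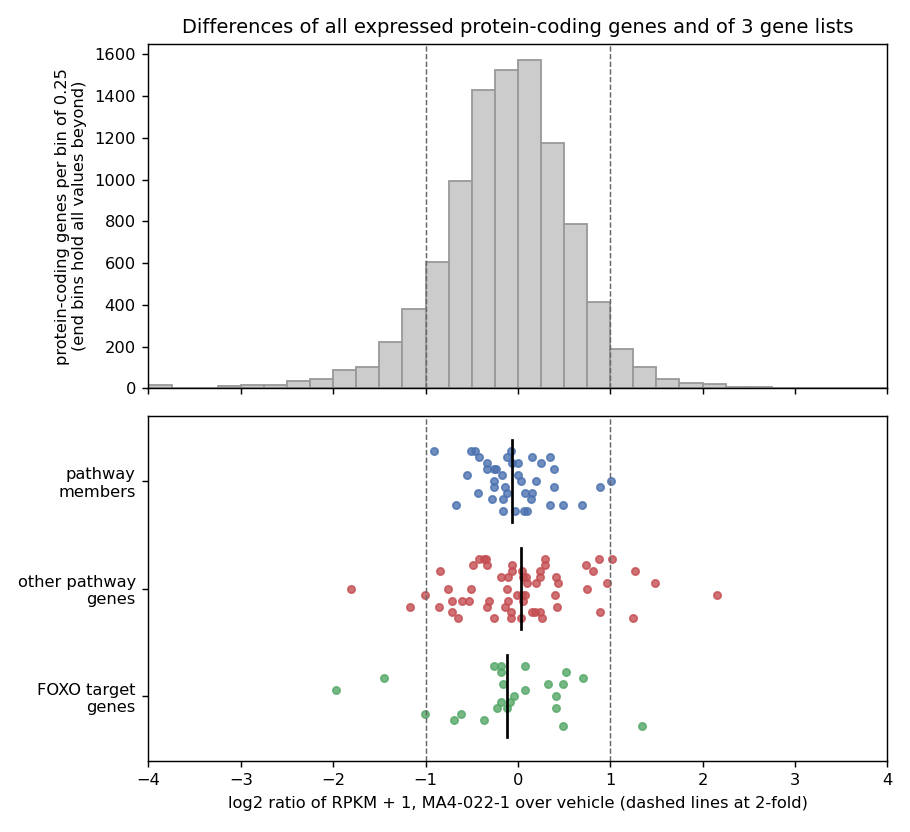
Upper panel, number of expressed protein-coding genes per bin of the log2 ratio of RPKM + 1, MA4-022-1 over vehicle, with values past the axis in the end bins. Lower panel, the same ratio for the 42 pathway members, 62 other pathway genes and 25 FOXO targets at 1 RPKM or more (points, with medians as bars), where the members range from -0.91 to 1.00 and the other lists reach further.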

How the data were processed

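Total RNA of C4-2B cells, 1 library per group, was depleted of ribosomal RNA and sequenced as single 50 bp reads, per the labels' protocols. The submitters' processing notes name hg19, Cufflinks 2.2.1 and TopHat2 2.0.13; the annotation and strand setting are not stated there. The authors deposited RPKM per gene row with its locus, per the file headers, so no count test was run.

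Rows of a symbol were summed. Rows joining several symbols were kept as the member's value and marked (7 members). For all-gene figures, 2751 of 62271 rows without a symbol and short RNAs were left out and joint names counted as 1 gene. Joint names were left out of the protein-coding figures. A gene counted as expressed at 1 RPKM in a library. Folds are of RPKM + 1, with a threshold of 2-fold. Reads came in whole steps in processed pseudogenes of 600 to 6000 nt: 189 of 191 values up to 5 reads in vehicle and 144 of 146 with MA4-022-1 lay within 2% of a whole number. Lengths are medians of coding transcripts in GENCODE release 29, so read numbers are estimates. Named genes were all members and, of 2 further lists, genes past 2-fold with at least 5 RPKM, up to 6 per direction. 1 gene of the further lists is not reported here. Members and lists were chosen with earlier results of these data known. The scripts were tested on simulated data. Python 3.11.15, numpy 2.4.6, pandas 2.3.3, scipy 1.17.1 and matplotlib 3.10.9 were used, and 11 other settings were tried, 1 of them chosen after seeing the data.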

Additional observations from a re-analysis of the deposited data

How the results depend on the processing

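Of 11 alternatives, 5 left both counts and the median close to the reported values and 6 moved at least 1 of them. Single log2 ratios moved by more than the half-width of their counting interval (0.1 for rows without one), or past the threshold, for 27 of 42 members on the housekeeping scale and for 21 of 42 with equal sums. The number at least 2-fold higher, 1 as reported, became 2 when centred on the housekeeping controls (FNIP1 and TSC1), 0 with equal sums over the genes kept, 0 with a pseudocount of 5 RPKM, 0 with joined rows left out and 3 at a threshold of 1.5-fold. The number at least 2-fold lower, 0 as reported, became 1 (IRS1) with a pseudocount of 0.1 RPKM and 2 at 1.5-fold. The median of -0.07 moved to 0.083 on the housekeeping scale, -0.17 with equal sums and -0.12 with joined rows left out. An alternative chosen after seeing the data left out PDPK1, FOXO3, PIK3CA and RHEB, which have near-identical copies, and gave 1 higher, 0 lower and a median of -0.05. No paired analysis was possible because each group holds 1 library. For the same reason no library could be left out. INPP5D, FOXO1 and TXNIP, each under 1 RPKM, were left out of the counts by the filter. Depth limits FOXO1 and TXNIP, whose counting intervals include 1, whereas that of INPP5D does not.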
